A study of Mus musculus with 119 samples.

Results

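The genes described here encode metabotropic glutamate receptors, and 7 of them (Grm2, Grm3, Grm4, Grm5, Grm6, Grm7 and Grm8) were taken by name from the 55291 genes of the deposited count tables, as levels in CPM (a count scaled to a common library size) over all 119 libraries. Metabotropic glutamate receptors are G protein-coupled receptors with a large extracellular glutamate-binding domain. They slow or tune transmission rather than carry it, and fall into 3 groups. Grm5 belongs to group I, which couples to Gq, phospholipase C and calcium release and sits mainly at postsynaptic sites. Grm2 and Grm3 form group II, and Grm4, Grm6, Grm7 and Grm8 form group III; both groups couple to Gi and Go, lower cAMP and often hold back transmitter release from presynaptic terminals. Grm3 is also carried by astrocytes, and Grm6 is known as the receptor of retinal ON bipolar cells.

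The mice were female and male C57BL/6J animals by the labels (C57BL/6NCrl by the study's methods), 11 weeks old by the labels at collection. Each received THC at 10 mg/kg or its vehicle (ethanol, Tween and saline) by intraperitoneal injection on each day from postnatal day 28 to 48, which makes 21 injections, and behavioural tests began at postnatal day 63 after abstinence. Punches were taken from the prefrontal cortex (PFC), the striatum (coded DMS; the labels call it dorsolateral and the study's methods dorsal medial), the nucleus accumbens (NAc), the amygdala (Amy) and the ventral tegmental area (VTA). Each of the 20 groups of region, sex and treatment held 6 libraries, except the VTA of vehicle males with 5. Every library is 1 region of 1 mouse, but the labels do not say which libraries share a mouse, so p-values between regions leave that sharing out. A punch holds many cell types, and fewer cells of a type cannot be told apart from less RNA per cell.

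The libraries held 3090998 to 77042133 expected counts (median 22092612). The first table held the PFC and DMS, the other the NAc, Amy and VTA. Where a pair of regions spans both tables, region and table cannot be told apart. Sex-linked genes matched the label in 117 libraries and went against it in 2, library FTL_344 (female Amy THC) and library FTL_356 (male Amy THC). The main Amy results are given below with all libraries and then without these 2. Amy counts at an unadjusted p and Amy correlations are given with all libraries only. The 24 differences between the Amy and another region moved by at most 0.020 on the log2 scale without FTL_344 and FTL_356, and no call changed. Region markers were highest by mean in their own regions. The cortical and basolateral projection-neuron list summed to a mean of 5706 CPM in the PFC, against at most 2486 elsewhere (Amy). The medium spiny neuron list summed to 9932 in the DMS and 4503 in the NAc, against at most 1101 elsewhere (Amy). Amy libraries of that list ran from 554 to 3078 CPM, close to the lowest NAc library (3080). The dopaminergic list summed to 2906 in the VTA against at most 37.8 in the other 4 regions.

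The pair that makes up group II is shown by its promoters, because these receptors share ligands and coupling but differed in where their mRNA was found. RefSeq promoters (GRCm38.p6, 250 bases before to 50 after the start of transcription) were read for Grm2, Grm3, Grm6, Grm7 and Grm8. Grm2 lies on chromosome 9 and Grm3 on chromosome 5, both on the minus strand, with windows chr9:106656060-106656359 and chr5:9725303-9725602. Capitals mark CG dinucleotides.

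Grm2: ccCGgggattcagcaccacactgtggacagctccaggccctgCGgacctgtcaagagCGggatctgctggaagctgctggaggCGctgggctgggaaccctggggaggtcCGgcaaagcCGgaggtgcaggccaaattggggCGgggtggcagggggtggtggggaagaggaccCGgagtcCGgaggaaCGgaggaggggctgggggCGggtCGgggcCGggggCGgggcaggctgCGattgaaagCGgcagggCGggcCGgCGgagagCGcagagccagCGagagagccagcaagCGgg

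Grm3: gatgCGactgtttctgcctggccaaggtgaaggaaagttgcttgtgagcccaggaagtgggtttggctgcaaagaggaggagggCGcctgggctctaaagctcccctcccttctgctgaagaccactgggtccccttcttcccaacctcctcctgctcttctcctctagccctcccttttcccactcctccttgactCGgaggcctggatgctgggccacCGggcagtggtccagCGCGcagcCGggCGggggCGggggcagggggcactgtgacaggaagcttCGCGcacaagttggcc

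The Grm2 window is 72.0% G and C and holds 22 CG dinucleotides and 4 GC boxes (GGGCGG on either strand). The Grm3 window is 63.7% G and C and holds 11 CG dinucleotides and 2 GC boxes. Of 32851 mouse promoters of the same length, 94.6% hold a CG dinucleotide, with a median of 7, and 35.7% hold a GC box, so both windows are CG-rich and neither motif is particular to the pair. A TATA box (TATAAA) is in neither window and in 13.6% of all promoters, and an E-box (CAGCTG) is in neither and in 16.3% of all.

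All 7 genes are annotated as protein coding in GENCODE M21 on GRCm38. Their spans range from 12988 bases for Grm2 to 921650 bases for Grm7. Grm5 lies at chr7:87584168-88134907, Grm2 at chr9:106643095-106656082, Grm3 at chr5:9485541-9725170, Grm4 at chr17:27422387-27521403, Grm6 at chr11:50850685-50866208, Grm7 at chr6:110645581-111567230 and Grm8 at chr6:27275119-28135178. Antisense transcripts overlap Grm2, Grm6 and Grm7, and the strand setting of the counting is not given in the sources used here, so their reads could be shared. Other annotated genes overlap Grm4, Grm5 and Grm8 on the opposite strand. On the same strand others overlap Grm3, Grm4, Grm5, Grm7 and Grm8, where any sharing would not depend on the strand setting. Overlap was taken over whole gene spans, introns included, and overlap of exons was not checked. Of the 7, 6 members passed the filter on low counts, and Grm6 did not.

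**Figure D1:**
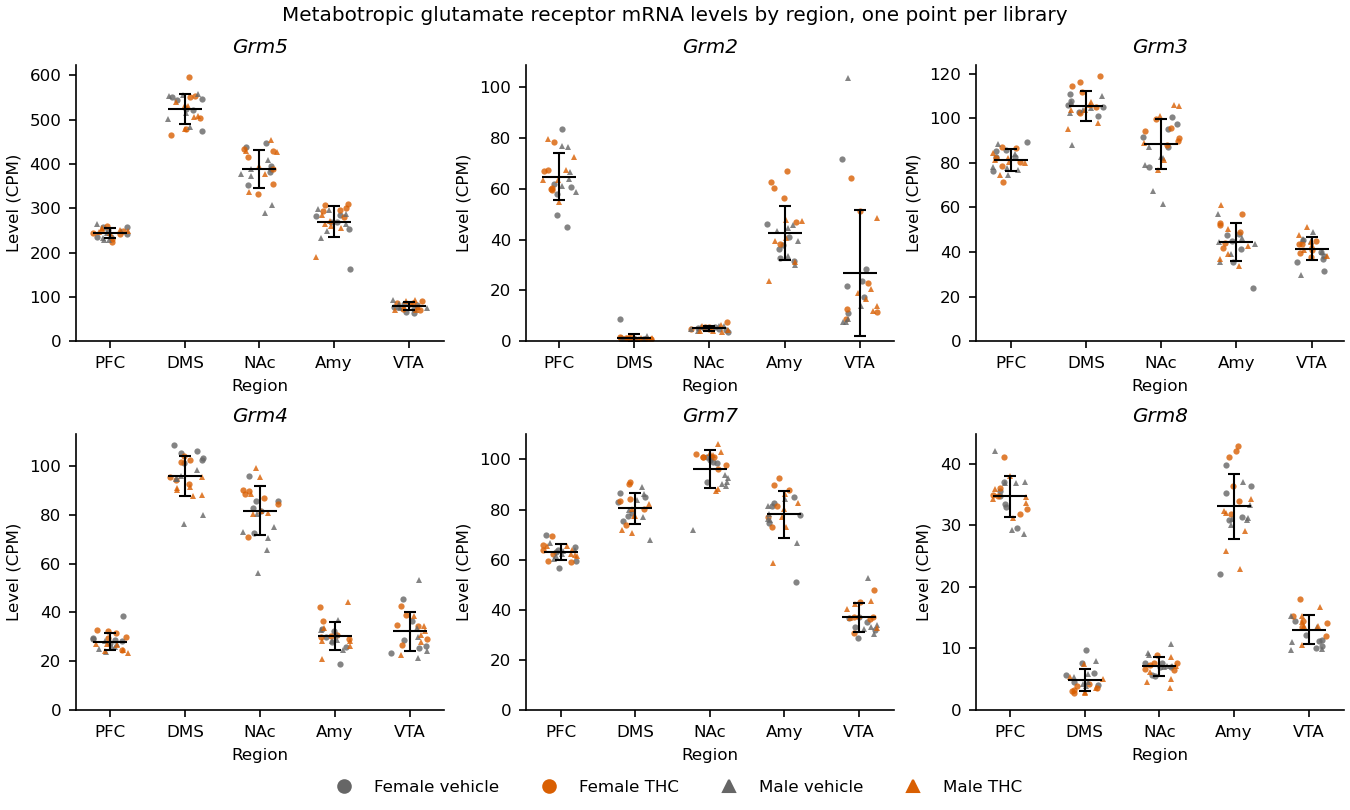
Level in CPM (linear axis from 0) of the 6 measurable receptors in each of the 119 libraries by region. Black bars give the mean and SD, circles are females, triangles males, grey vehicle and orange THC. Grm5 and Grm4 stood highest in the DMS, while Grm2 and Grm8 stood lowest there.

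Grm5, the receptor that drives Gq signalling at dendritic spines, was highest in the striatum. Its level was 524 ± 33.1 CPM for DMS, 389 ± 43.6 for NAc, 269.4 ± 34.9 for Amy, 245 ± 10.9 for PFC and 79.1 ± 8.41 for VTA (mean ± SD; n = 24, and 23 for VTA). Every DMS library (465.8 to 596 CPM) stood above every Amy, PFC and VTA library, and the VTA libraries (63.1 to 92.9 CPM) stood below all others. In the edgeR quasi-likelihood test Grm5 was lower in the PFC than in the DMS by 1.10 on the log2 scale (SE 0.04, adjusted p = 3.15e-48), and higher in the DMS than in the VTA by 2.73 (SE 0.04, adjusted p = 2.24e-82). The PFC and Amy were the closest neighbours, with a log2 difference of -0.14 (adjusted p = 0.00165), smaller than the difference of 0.4 that a call required.

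Calls between regions needed an adjusted p (Benjamini-Hochberg over all genes tested) under 0.05 and a log2 difference of at least 0.4. Regions differ widely, and such calls covered 50.8% of 18932 genes between PFC and DMS, 47.1% between PFC and NAc, 37.7% between PFC and Amy, 56.6% between PFC and VTA, 33.5% between DMS and NAc, 44.9% between DMS and Amy, 58.9% between DMS and VTA, 27.5% between NAc and Amy, 54.7% between NAc and VTA and 46.3% between Amy and VTA. Of the 6 members tested, 4, 5, 2, 5, 3, 5, 6, 5, 6 and 4 were called in these pairs in the same order. The member calls were made in edgeR, and DESeq2 called the same number in each pair.

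Grm2, a presynaptic brake on glutamate release, showed the widest range of mean levels among the 6, with the PFC 46.1-fold above the DMS. It stood at 64.9 ± 9.42 CPM for PFC, 42.7 ± 10.7 for Amy, 26.9 ± 24.7 for VTA, 5.10 ± 0.954 for NAc and 1.41 ± 1.62 for DMS. The PFC exceeded the DMS by 5.57 on the log2 scale (SE 0.23, adjusted p = 5.25e-42 by edgeR) and the NAc by 3.67 (SE 0.19, adjusted p = 6.58e-34). One DMS library, FTL_285 of the vehicle females, held 8.83 CPM of Grm2 while the other 23 held 0.674 to 1.92 CPM. That library also held 206 CPM of Slc17a7, the vesicular glutamate transporter of cortical projection neurons, against a DMS median of 2.74, and 21.4 CPM of Tbr1, a transcription factor of cortical projection neurons, against 0.388. Without it, a choice made after seeing the data, the DMS mean of Grm2 was 1.08 CPM, the lead of the PFC 5.93 and the deficit against the NAc -2.26 rather than -1.90. For the other receptors the PFC minus DMS difference moved little without it, from 2.86 to 2.91 for Grm8, the largest of these moves.

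Grm3, the group II receptor that neurons and astrocytes both carry, varied less and in another order. Levels were 105 ± 6.66 CPM for DMS, 88.6 ± 11.2 for NAc, 81.2 ± 4.72 for PFC, 44.5 ± 8.48 for Amy and 41.4 ± 5.21 for VTA. The DMS and NAc differed by 0.26 on the log2 scale and the PFC and NAc by -0.12, both under the 0.4 required, and the Amy and VTA by 0.09 (adjusted p = 0.0761 by edgeR; 0.11 and 0.0346 without FTL_344 and FTL_356). The step from these 3 higher regions to the Amy and VTA was larger, with 0.87 from PFC to Amy (adjusted p = 1.56e-32) and 1.34 from DMS to VTA (adjusted p = 7.53e-48). Per kilobase of annotated exon, the ratio of Grm2 to Grm3 was 0.500 ± 0.0822 in the PFC and 0.612 ± 0.145 in the Amy, against 0.0367 ± 0.00973 in the NAc and 0.00841 ± 0.00985 in the DMS. In the VTA that ratio ran from 0.0957 to 2.18 over the 23 libraries.

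Among group III receptors, Grm4 and Grm8 were distributed in opposite ways. Grm4 stood at 95.9 ± 8.03 CPM in the DMS and 81.7 ± 10.1 in the NAc, against 27.9 ± 3.48 in the PFC, 30.5 ± 5.77 in the Amy and 32.2 ± 7.86 in the VTA. Grm8 stood at 34.7 ± 3.31 CPM in the PFC and 33.1 ± 5.32 in the Amy, against 13.1 ± 2.29 in the VTA, 7.09 ± 1.58 in the NAc and 4.90 ± 1.82 in the DMS. In edgeR the PFC minus DMS difference was -1.78 for Grm4 (SE 0.06, adjusted p = 7.46e-50) and 2.86 for Grm8 (SE 0.08, adjusted p = 1.53e-59). The PFC and Amy were not separated for Grm8 (0.08, interval -0.06 to 0.21, adjusted p = 0.301), nor the Amy and VTA for Grm4 (-0.05, interval -0.18 to 0.07, adjusted p = 0.443). Per kilobase of annotated exon, Grm4 exceeded Grm8 36.4-fold in the DMS and 1.34-fold in the PFC. With the longest coding transcript as the length, Grm4 still led in the DMS (20.8 against 1.27 CPM per kilobase), but Grm8 led in the PFC (9.00 against 6.06).

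Grm7, a low-affinity receptor of the presynaptic active zone, varied between regions about as little as Grm3, with the highest region 2.60-fold above the lowest against 2.55-fold for Grm3. Its mean was 96.1 ± 7.46 CPM for NAc, 80.5 ± 6.13 for DMS, 78.1 ± 9.32 for Amy, 63.1 ± 3.12 for PFC and 37.0 ± 5.79 for VTA. The DMS and Amy did not differ beyond their spread (0.04, interval -0.03 to 0.12, adjusted p = 0.299), and the largest difference was NAc minus VTA at 1.39 (SE 0.04, adjusted p = 1.50e-56 by edgeR). Grm6 was essentially unread: its counts summed to 7 over 24 PFC libraries, 7 for DMS, 0 for NAc, 1 for Amy and 8 for VTA, and 102 of the 119 libraries held none.

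Levels can be set side by side between receptors only per length, and the order then turned on the length used. Per kilobase of annotated exon, Grm5 led in the DMS (51.1 CPM per kilobase), ahead of Grm3 (34.6), Grm4 (16.04) and Grm7 (13.7). In the PFC Grm3 led with 26.6, followed by Grm5 with 23.9 and Grm2 with 13.3. With the longest coding transcript as the length, Grm5 led the PFC with 30.4 and Grm3 followed with 26.6. Grm3 led the VTA under both, with 13.6 against 7.72 or 9.83 for Grm5.

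The question of the treatment comparison was whether adolescent THC left a lasting change in receptor mRNA, and it was asked within each of the 10 pairs of region and sex. Among the 6 members tested in each, 1 call was made in all: Grm2 rose in the Amy of THC-treated females. Members were called 1 of 6 there against 1.57% of 17003 genes. Upward calls alone covered 1.09% of genes. Calls covered 0.0127% of genes for female DMS and 0% for each of the other 8 comparisons, with no member among them by edgeR. At an unadjusted p under 0.05, edgeR counted 2 members for female DMS, 4 for male NAc, 1 for female Amy, 2 for female VTA and 1 for male VTA, and none for PFC of either sex, male DMS, female NAc or male Amy. DESeq2 called Grm8 for female DMS and Grm2 for female Amy, and no other member. Over all genes that unadjusted share was 8.90% for female DMS, 16.7% for male NAc, 21.9% for female Amy, 9.02% for female VTA and 5.92% for male VTA.

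**Figure D2:**
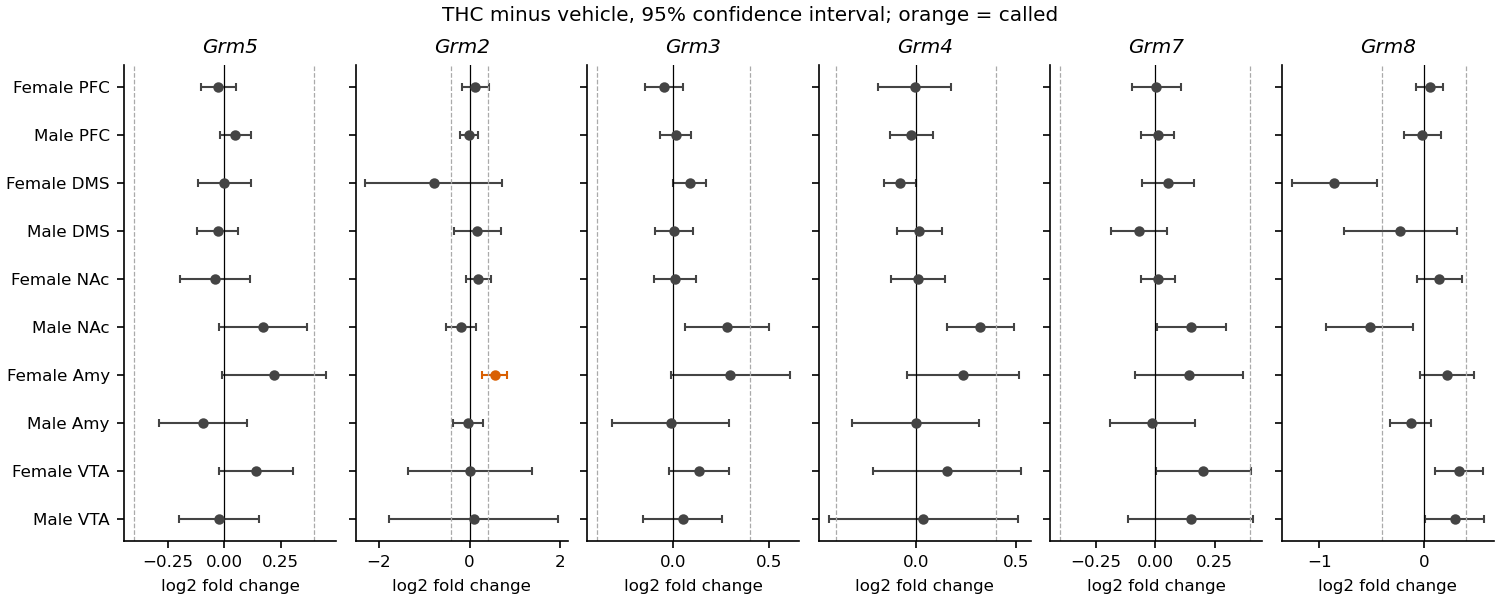
Log2 fold change, THC minus vehicle, with its 95% confidence interval for 6 receptors (panels, each with its own horizontal scale) in 10 comparisons of region and sex. Dashed lines mark 0.4 in either direction. Only Grm2 in the female Amy is orange, the colour of a call.

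In the female Amy, Grm2 was 37.7 ± 5.34 CPM with vehicle and 55.3 ± 10.7 with THC (n = 6 each). The vehicle libraries ran from 31.8 through a median of 37.1 to 46.2 CPM, and the THC libraries from 38.5 through 58.4 to 67.2. The groups overlapped, since 1 THC library lay among the vehicle values and the other 5 lay above all of them. The log2 fold change was 0.55 (SE 0.13, interval 0.28 to 0.82, adjusted p = 0.0383 by edgeR). Without library FTL_344 it was 0.59 (adjusted p = 0.0482). The call is a near one. It was lost without a filter on low counts (0.56, adjusted p = 0.0657), with all 4 Amy groups in 1 fit (0.55, adjusted p = 0.0640), and when any 1 of 9 of the 12 libraries was left out (FTL_333, FTL_334, FTL_335, FTL_337, FTL_338, FTL_339, FTL_340, FTL_341 and FTL_342; over all 12, 0.49 to 0.62 with adjusted p from 0.0126 to 0.102).

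In males the same comparison gave -0.04 (interval -0.37 to 0.30, adjusted p = 1.00), with 30.1, 41.4 and 45.7 CPM as the lowest, median and highest vehicle value and 23.8, 40.0 and 47.6 as those of THC. The male groups overlapped. Without library FTL_356 the male value was -0.11. The difference between the sexes was tested as an interaction and did not pass (-0.59, interval -1.03 to -0.15, adjusted p = 0.256 by edgeR; -0.70 and 0.196 without both libraries). The Amy interaction called 0.0059% of genes and no member (3 of 6 at an unadjusted p under 0.05 in edgeR, as were 15.8% of all genes, and 0 called by DESeq2), and interactions in the other 4 regions called 0% of genes. With both sexes together the Amy fold change of Grm2 was 0.26 (adjusted p = 0.691; 0.26 and 0.992 without both libraries).

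Markers of several cell types also differed between the same 2 groups of females. The cortical and basolateral projection-neuron list summed to 1688 to 2592 CPM with vehicle and 2646 to 3441 with THC, without overlap, and 4 of its 10 tested members rose (Camk2a, Neurod6, Slc17a7 and Tbr1, by 0.47 to 0.94 on the log2 scale). Of the 9 tested genes of the hypothalamus and medial amygdala list, all lay below 0 and 1 fell (Lhx5, a transcription factor of developing hypothalamic neurons, by 1.47, adjusted p = 0.0123 by edgeR). That list summed to 94.7 to 198 CPM with vehicle and 75.6 to 127 with THC, so its groups overlapped. The medium spiny neuron list ran from 554 to 1149 CPM with vehicle and 921 to 1508 with THC, with none of 9 called. Lhx6 was the only gene of the interneuron list called and fell by 0.48. Th was the only one of the dopaminergic list and fell by 0.64. Choroid plexus transcripts ran from 17.1 to 1150 and from 17.6 to 3563 CPM. In males the cortical list ran from 1591 to 2803 with vehicle and 1797 to 3529 with THC. Without library FTL_344 the cortical sums of THC females had the same range, 3 of the 10 cortical genes were called (not Camk2a, adjusted p = 0.0552 by edgeR), Lhx5 and Lhx6 kept their calls and Th did not (adjusted p = 0.0519). In the same female fit without library FTL_344, 9 of 10 cortical genes lay above 0, with a median of 0.59. For the medium spiny neuron list it was 8 of 9, with a larger median of 0.75, and for the interneuron list 4 of 7, with a median of 0.03. There 0 of 4 dopaminergic and 0 of 6 oligodendrocyte genes lay above 0, with medians of -0.23 and -0.46, and none was called. Without library FTL_356 the highest cortical sum of THC males was 2506 CPM. Their medium spiny neuron list then ran from 627 through a median of 704 to 3078 CPM. Library FTL_352, the THC male with the least Grm2 (23.8 CPM), held 76.0 CPM of Drd2 and 194.5 of Adora2a. Among vehicle males library FTL_346 held the most, 50.2 and 138 CPM, with 39.3 of Grm2. The Amy medians were 22.2 and 45.3 CPM. Drd2 and Adora2a were picked after their values were seen. The part of these values and shifts in the Grm2 values of either sex was not tested.

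**Figure D3:**
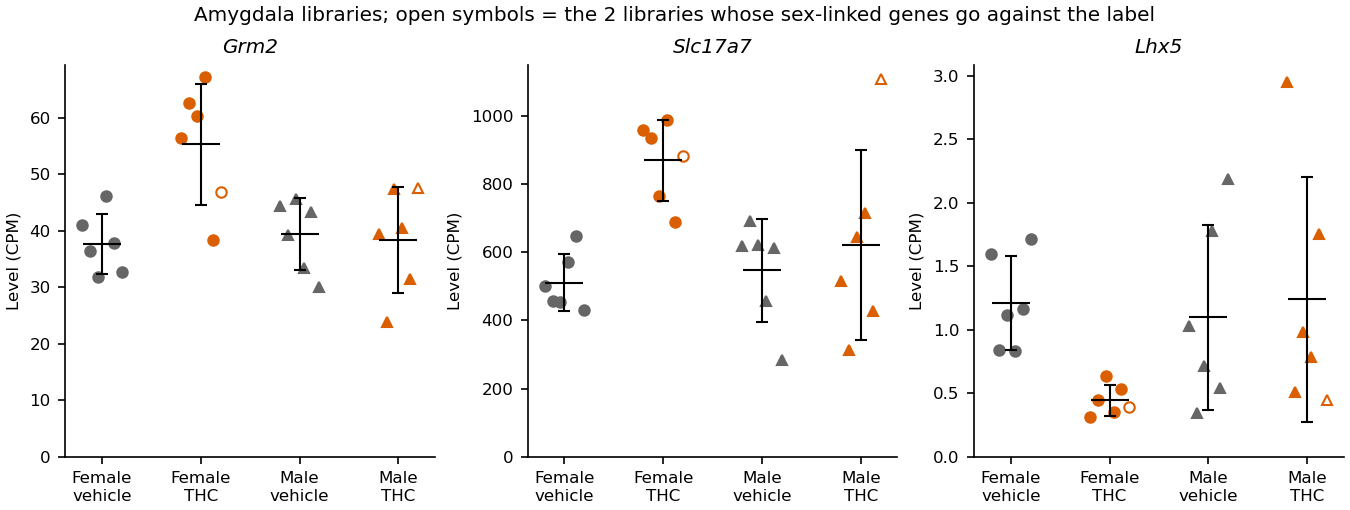
Level in CPM (linear axes from 0) of Grm2, Slc17a7 and Lhx5 in the 24 Amy libraries, with group mean and SD; open symbols are libraries FTL_344 and FTL_356. In females Grm2 and Slc17a7 are higher and Lhx5 lower with THC, with overlapping groups for Grm2. Male groups overlap for all 3.

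The other 5 receptors of the female Amy also lay above 0 without passing the test. Their log2 fold changes were 0.30 for Grm3, 0.23 for Grm4, 0.22 for Grm5, 0.14 for Grm7 and 0.22 for Grm8, with adjusted p from 0.241 to 0.446 by edgeR. Without library FTL_344 they were 0.34, 0.26, 0.23, 0.17 and 0.26 in the same order, and none passed. The median over the 6 members was 0.23, and over all genes tested -0.01. Genes around the receptors that were called in this comparison included Dlgap1 (0.43), a postsynaptic scaffold protein, and Itpr1 (0.54), the calcium release channel downstream of Gq, both from the 14 genes of the group I list. Adcy1 rose by 0.74 and Adcy8 fell by 0.44, and both are calcium-stimulated adenylyl cyclases among 15 Gi and Go effectors. Grasp (0.68), the receptor scaffold also called tamalin, was 1 of 5 genes of the group II and III partner list, and Slc17a7 (0.76) 1 of 8 genes of glutamate release and uptake. None of 8 receptor kinase, arrestin and RGS genes was called, nor any of 3 retinal partners of Grm6. Without library FTL_344, Grasp (0.71) and Slc17a7 (0.76) were still called, while Dlgap1 (0.41, adjusted p = 0.0519), Itpr1 (0.56, 0.0707), Adcy1 (0.73, 0.0604) and Adcy8 (-0.43, 0.0707) were not (edgeR). No pathway list held a call in the other 9 treatment comparisons.

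In the striatum the low receptor Grm8 gave the largest fold change of the family. In the female DMS it was 6.28 ± 2.10 CPM with vehicle and 3.46 ± 0.552 with THC (n = 6 each). Vehicle libraries ran from 4.04 through a median of 5.85 to 9.69 CPM and THC libraries from 2.80 through 3.35 to 4.25. Among THC libraries, 5 of 6 lay below every vehicle library. The log2 fold change was -0.86 (SE 0.19, interval -1.26 to -0.45), and did not pass in edgeR (adjusted p = 0.198) but was called in DESeq2 (adjusted p = 0.0106). Leaving out library FTL_285 moved it to -0.68 (adjusted p = 0.0952), and over the 12 libraries left out in turn it stayed between -0.96 and -0.68 with adjusted p from 0.0545 to 0.456. Grm2 in the same comparison turned from -0.78 to 0.59 without library FTL_285, and neither value passed (adjusted p = 0.779 and 0.380). In the male DMS Grm8 was -0.23 (adjusted p = 1.00), and the interaction was 0.63 (adjusted p = 0.859).

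In the male NAc, Grm4 separated the groups without overlap, as did 0.86% of 15932 genes. It ran from 56.2 through 71.8 to 80.5 CPM with vehicle and from 80.5 through 85.1 to 99.3 with THC. The lowest THC and highest vehicle library were nearly equal. The log2 fold change was 0.32 (SE 0.08, interval 0.15 to 0.49, adjusted p = 0.210 by edgeR). DESeq2 gave 0.32 with an adjusted p of 0.0235, under the 0.4 required. Grm3 moved in the same direction (0.28, adjusted p = 0.217), and Grm8 in the other (-0.52, adjusted p = 0.221), from 8.35 ± 1.55 to 5.83 ± 1.86 CPM, with overlapping groups. The medium spiny neuron list, 9 of 9 genes above 0 and none called, summed to 3080 to 4564 CPM with vehicle and 3989 to 6276 with THC. No other member separated vehicle from THC in any of the 10 comparisons. The share of all genes that did so was 0.365% and 0.188% for PFC (females, males), 0.551% and 0.0808% for DMS, 0.213% for female NAc, 4.15% and 0.0914% for Amy, and 0.362% and 0.515% for VTA. Beside the medium spiny neuron list the cortical list held 5 of 6 tested genes below 0, and the hypothalamus and medial amygdala list 5 of 5. Slc17a6, the vesicular glutamate transporter of subcortical neurons, ran from 9.25 to 25.6 CPM with vehicle and from 1.32 to 8.58 with THC, without overlap. Tbr1 was 5.81 ± 2.86 and 1.83 ± 1.06 CPM and Lhx5 1.19 ± 0.917 and 0.441 ± 0.373 (vehicle, then THC). These 3 genes were picked after their values were seen. Their part in these values was not tested. In the female NAc the same receptors gave 0.01 for Grm4, 0.01 for Grm3 and 0.14 for Grm8, and their sex by treatment interactions did not pass (0.31, 0.27 and -0.66, adjusted p = 0.385, 0.419 and 0.385 by edgeR; 3 of 6 members at an unadjusted p under 0.05, against 11.0% of all genes).

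**Figure D4:**
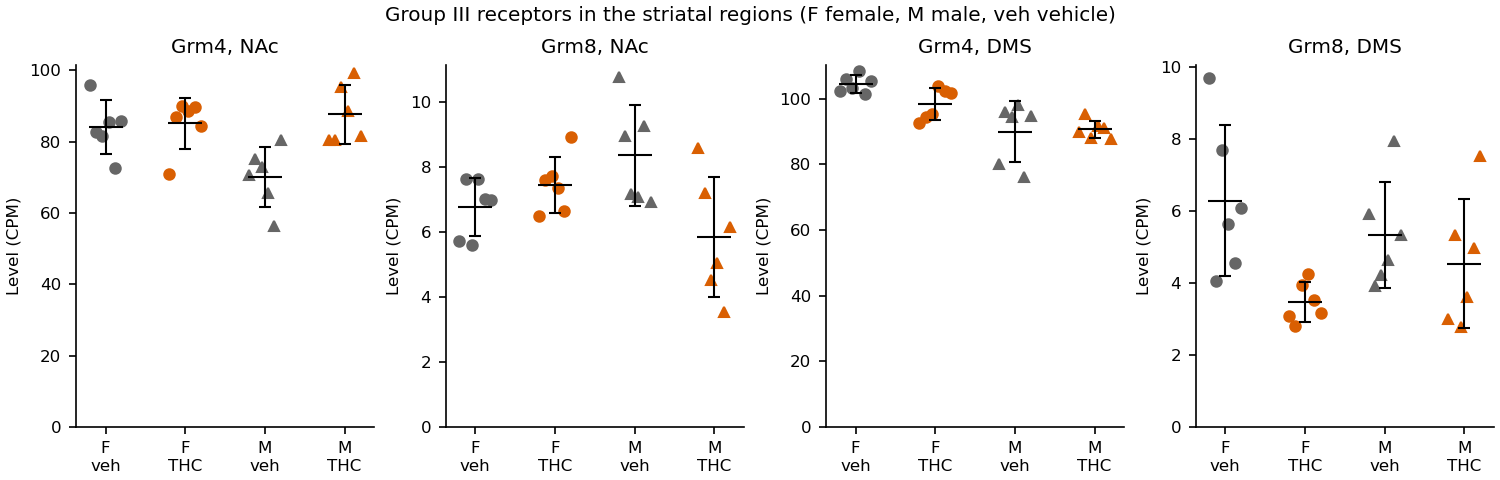
Level in CPM (linear axes from 0) of Grm4 and Grm8 in the NAc and DMS by sex and treatment, one point per library with group mean and SD. In the male NAc Grm4 is higher and Grm8 lower with THC, and in the female DMS Grm8 is lower with THC.

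In the VTA Grm8 lay above 0 in both sexes, at 0.33 in females (interval 0.10 to 0.56, adjusted p = 0.512) and 0.29 in males (interval 0.01 to 0.57, adjusted p = 0.819), and at 0.31 with both sexes together (adjusted p = 0.357 by edgeR). Female vehicle libraries ran from 10.1 through 11.3 to 14.5 CPM and THC libraries from 11.98 through 14.3 to 17.98, with overlap. The 5 male vehicle libraries held 13.4, 9.77, 15.2, 11.0 and 10.0 CPM, and the THC libraries ran from 10.5 through 14.0 to 16.8, also with overlap. In the PFC all 12 fold changes of the 6 members lay between -0.05 and 0.13. With both sexes together edgeR and DESeq2 called no member, and edgeR called 0% of genes, in any of the 5 regions. Unadjusted p fell under 0.05 in edgeR for Grm8 in the DMS, Grm3 and Grm4 in the NAc, Grm2 in the Amy, Grm7 and Grm8 in the VTA, and no member in the PFC. Over all genes that share was 4.88% (DMS), 10.2% (NAc), 7.05% (Amy), 9.99% (VTA) and 4.81% (PFC).

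Between the sexes, with treatment as a term, no member was called, while the shares of all genes called were 0.237% (PFC), 2.64% (DMS), 0.25% (NAc), 0.0118% (Amy) and 0.113% (VTA). The Amy values here include libraries FTL_344 and FTL_356, whose sex-linked genes went against their labels. With either left out, Grm8 in the Amy ran from -0.202 to -0.190 (adjusted p from 0.626 to 0.833 by edgeR), against -0.185 with all. Unadjusted p fell under 0.05 in edgeR for Grm4 in the PFC, Grm3 and Grm4 in the DMS, Grm7 in the NAc and Grm8 in the Amy, for no member in the VTA, and DESeq2 also called none. Over all genes that share was 16.3% (PFC), 27.8% (DMS), 16.4% (NAc), 6.06% (Amy) and 7.19% (VTA). The 1 or 2 of 6 members in the PFC, DMS and NAc were near it. In the Amy it was 1 of 6 against 6.06%, and in the VTA 0 of 6 against 7.19%. Grm4 was lower in males with an adjusted p under 0.05 in edgeR, by 0.23 in the PFC (adjusted p = 0.0132) and 0.15 in the DMS (adjusted p = 0.00686), both under the 0.4 required. In the NAc, Amy and VTA its difference was -0.11, 0.00 and -0.10, none past an adjusted p of 0.05. Homer1, a scaffold that binds the tail of Grm5, was lower in males in the PFC by 0.40 (adjusted p = 0.0469).

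Grm2 in the VTA varied widely between libraries of the same group. Over 23 libraries it ran from 7.50 to 104 CPM. The 5 male vehicle libraries held 7.68, 7.50, 104, 8.60 and 14.0 CPM, and male THC libraries ran from 11.9 through 17.8 to 48.5. Female vehicle libraries ran from 11.0 through 22.8 to 71.7 and female THC libraries from 8.90 through 17.9 to 64.4, so high libraries occurred in each of the 4 groups. In males the THC fold change was 0.09 (interval -1.77 to 1.95) and became 1.19 without library FTL_371, while it fell to -0.30 without library FTL_376. Library FTL_371 was the shallowest of all, with 3090998 counts against a median of 22092612. The study's methods also report that 1 male VTA sample was removed as an outlier, without naming it. All 11 male VTA libraries were used here. The genes named next were chosen after their values were seen. Over the same 23 libraries and 14841 genes, log2 Grm2 was most like Rprm (r = 0.98), Myh8 (0.97) and Foxb1 (0.97), a transcription factor of the mammillary hypothalamus, all points being libraries of 1 region. The 5 libraries with the most Grm2 held 31.0 to 74.0 CPM of Foxb1, and the other 18 held 4.02 to 20.8. Library FTL_371 also held 365.9 CPM of Slc17a6 and 287.4 of Th, the enzyme that starts dopamine synthesis, while library FTL_370, lowest in Grm2, held 144 and 635. Library FTL_363 went the other way, with 318.7 CPM of Slc17a6 and the lowest Th of all (224.6) but 11.4 CPM of Grm2. The part of these genes in the Grm2 values was not tested.

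**Figure D5:**
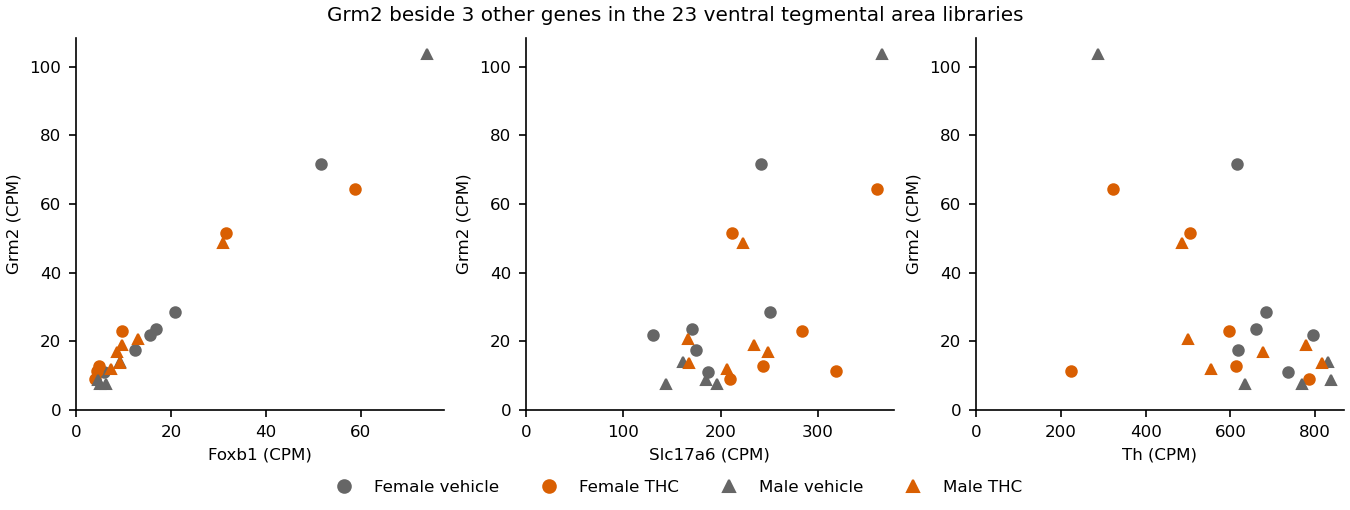
Grm2 against Foxb1, Slc17a6 and Th (all in CPM on linear axes from 0) in the 23 VTA libraries, coloured by treatment and shaped by sex. Grm2 and Foxb1 rise together from the lowest libraries to library FTL_371 at 104 and 74.0 CPM, and the spread spans all 4 groups.

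Across all 119 libraries, after the mean of each group was taken off, each receptor was most like a different set of genes (Pearson r over 119 libraries that share regions, mice and depth, among 14870 genes). Grm5 was most like Akap11 (0.83), Cdr1os (0.80) and Lrrc7 (0.79), and Grm2 most like Cnih3 (0.83), Rprm (0.81) and Kcnj9 (0.74). Grm3 was nearest to Dennd11 (0.81), Gnal (0.81), which encodes a G protein alpha subunit, and Cacnb4 (0.78). For Grm4 the nearest were 5330417C22Rik (0.82), Ryr3 (0.79) and Mtcl1 (0.79), those near Grm7 included Tnik (0.77) and Arhgap20 (0.76), and for Grm8 they were Gng2 (0.62), Cacna1g (0.61) and Ppm1e (0.61). Between members themselves the strongest were Grm4 with Grm7 (0.62) and Grm5 with Grm7 (0.60), while Grm2 with Grm3 gave -0.33. These pooled values differed by region. Grm4 with Grm7 ran from -0.62 in the PFC to 0.85 in the VTA, and Grm5 with Grm7 from 0.27 in the VTA to 0.87 in the Amy. Grm2 with Grm3 ran from -0.75 in the VTA to 0.05 in the Amy. Grm2 and Grm8, high in the PFC and Amy by their means, were correlated at 0.76 within the Amy and at -0.35 within the PFC (24 libraries each).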

How the data were processed

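RNA was taken from tissue punches of 5 regions and sequenced as stranded, polyadenylated paired reads. The authors trimmed reads with cutadapt 2.9, aligned them with STAR 2.7.3a to mm10 and counted with RSEM 1.3.1; the annotation release and the counting strand are not given in the sources used here. The deposited values are expected counts, which the authors did not normalise, in 2 tables of 55291 genes; 4.90% of them were not whole and were rounded. Depth ran from 3090998 to 77042133, so a gene near 1 CPM rests on few counts in the shallowest library.

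Genes were filtered with filterByExpr, scaled by TMM and tested with the quasi-likelihood test of edgeR 4.0.16 in R 4.3.3. A call needed a Benjamini-Hochberg adjusted p under 0.05 over all genes tested and a log2 difference of at least 0.4. THC and vehicle were compared within region and sex; both sexes, sex and their interaction within region; and regions in 1 fit over 20 groups. Alternatives were DESeq2 1.42.0, its size factors, no filter, all 4 groups of a region, and libraries left out. The scripts were tested on simulated data. Named genes are all members, genes of pathway lists called in a comparison of treatment, interaction or sex (at most 5 a list by p), and the 3 most like each member; some genes that the rule names are not reported here. The members and lists were chosen with earlier results of these data known. The study's methods describe each library as 1 region of 1 mouse, but no source used here ties libraries to mice, so p-values measure the spread between libraries. The 2 closest libraries of a group gave a chi-square of 2.87 per degree of freedom, so none was counted as a repeat. Protein sequences and the promoters of Grm4 and Grm5 were not used here.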

Additional observations from a re-analysis of the deposited data

Results flagged for a closer look

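Within a group of 5 or 6 libraries, 16 of 120 sets of values had a highest or lowest library far from the rest, by the ratio of its gap to the whole range (above 0.71 for 5 libraries and 0.625 for 6). Chance gives this in about 1 in 20 groups. Grm2 gave 6 of them. In vehicle females of the DMS library FTL_285 held 8.83 CPM against 1.01 for the next, in vehicle males of the DMS library FTL_301 held 1.92, and in THC females of the NAc library FTL_320 held 7.46. In the VTA the high libraries were FTL_358 with 71.7 CPM (vehicle females), FTL_371 with 104 (vehicle males) and FTL_376 with 48.5 (THC males).

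Grm5 had a low library in 3 groups, with 474 CPM in library FTL_285 (vehicle females, DMS), 163 in library FTL_338 (vehicle females, Amy) and 190 in library FTL_354 (THC males, Amy). Grm7 was low in library FTL_338 too (50.9 CPM), in library FTL_313 (91.1, vehicle females, NAc) and in library FTL_323 (71.8, vehicle males, NAc), and high in library FTL_371 (52.5). Grm3 was low in library FTL_301 (87.9 CPM). Grm4 was high in library FTL_264 (38.5 CPM, vehicle females, PFC) and low in library FTL_315 (70.9 CPM, THC females, NAc).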

How the results depend on the processing

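No paired analysis was possible because the labels number each library once and give no mouse identity. Over 35 comparisons the counts of called members changed in 6, in 2 of them (NAc and Amy against VTA, 7 and 5 called) only by testing Grm6 without a filter. In the female Amy the count of 1 became 0 without a filter and with all 4 groups in 1 fit, and was 0 to 1 over the libraries left out; in the female DMS the count of 0 became 1 with DESeq2, and the cause was not tested. Scaled by the library total alone, PFC means moved to 226 CPM for Grm5, 75.1 for Grm3 and 58.3 for Grm7, by more than 1 SD. With vehicle libraries alone the count rose from 4 to 5 between PFC and DMS, where Grm7 passed 0.4 (-0.41), and fell from 3 to 2 between DMS and NAc, where Grm8 fell short (-0.36). Uncalled fold changes near 0 changed sign. For THC in the female DMS, Grm5 became 0.0020 without a filter, 0.0015 in the fit of 4 groups and -0.040 to 0.027 with libraries left out (for female DMS and male NAc chosen after seeing the data), and Grm2 ran from -0.96 to 0.59. In the male Amy, Grm3 and Grm4 became 0.022 and 0.024 without library FTL_356. In the VTA, DESeq2 gave -0.014 for Grm2 in females, and -0.38 for Grm2 and -0.048 for Grm4 in males; with libraries left out males ran from -0.069 to 0.033 for Grm5, -0.30 to 1.19 for Grm2, -0.013 to 0.11 for Grm3 and -0.087 to 0.21 for Grm4. With both sexes Grm2 in the VTA was -0.19 by DESeq2 and -0.072 to 0.52 with libraries left out. Its interaction was -0.38 by DESeq2 and -0.21 to 1.18; those of Grm4, Grm7 and Grm8 ran from -0.24 to 0.050, -0.11 to 0.059 and -0.10 to 0.025. Between the sexes, Grm7 in the PFC became 0.00058 with DESeq2 size factors, 0.0037 without a filter and 0.00059 by DESeq2, Grm5 in the DMS -0.0010 without a filter, Grm4 in the Amy -0.0090 without a filter, -0.0021 by DESeq2 and -0.0080 to 0.016 with a library left out, Grm3 in the Amy 0.0019 without both libraries and -0.022 to 0.017 with 1 left out, and Grm7 in the VTA -0.036 to 0.035. No alternative made any of these pass.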
